A study of Mus musculus with 4 samples.

Results

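The pentose phosphate pathway and a few other enzymes make most of the cell's cytosolic NADPH, the electron donor that glutathione reductase and thioredoxin reductase use to keep thiols reduced and that fatty acid and sterol synthesis consume. Transcripts of 10 enzymes, from both branches of this pathway and from other NADPH sources, were followed here. The oxidative branch of the pathway, which makes NADPH, was represented by G6pdx, Pgls and Pgd, and the non-oxidative branch, which interconverts sugar phosphates, by Rpia, Rpe, Tkt and Taldo1. Me1, Idh1 and Idh2 stood for NADPH sources outside the pathway. The genes were chosen by name for these roles, without a threshold on any measurement but with earlier results of these data known. All 10 were found among the 27179 genes of the count table and passed the low-count filter.

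The cells were B16F10, a pigmented mouse melanoma line labelled wild type, grown in culture with serum. They received plain olive oil or ozonated olive oil, both at 0.01% and for 6 h, and each group held 2 RNA sequencing libraries. Cells without oil were not analysed here. Olive oil is rich in unsaturated fatty acids, which ozone converts to ozonides and peroxides, and the comparison asks how transcripts differed between the oils. Nothing in the labels tells whether replicates came from separate cultures, and p-values then reflect only the spread among these libraries, which may be technical. Library totals ran from 22539486 to 30038784 counts, with 15457 to 16068 genes detected. The 8 melanocyte markers examined were present in every library, with a summed level of 20467 to 26518 CPM (counts scaled to library size). Of these 8 markers, 3 had lower values with ozonated oil without overlap (Mitf, Sox10 and Slc45a2), as did 2541 of all 12675 tested genes. None of the 8 passed over all genes. Mitf, the melanocyte lineage factor, was at 692 and 614 CPM with plain oil and 354 and 253 CPM with ozonated oil (log2 change -1.10, edgeR adjusted p = 0.254). By contrast, 5 fibroblast markers summed to 5.66 to 8.09 CPM, 5 immune markers to 0.924 to 4.17 CPM and 4 endothelial markers to at most 0.263 CPM. The sum of 5 keratinocyte markers differed within each group. In libraries 1 and 2 it was 24.4 and 3.49 CPM with plain oil, and 0.921 and 19.2 CPM with ozonated oil. The source of this difference was not tested.

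NRF2, a transcription factor of the antioxidant response, is known to act on several NADPH-producing genes through the antioxidant response element, whose core reads TGACNNNGC. The windows from 250 bases before to 50 bases after annotated starts (RefSeq, GRCm38.p6) were searched for these 9 letters on both strands. Every match among the 10 genes is shown. Me1 and Pgd held a match, and so did G6pdx, whose groups overlapped. The libraries of Me1 and Pgd separated by oil, as did those of 40.0% of all tested genes in either direction. The choice to show the matches was made with these values known, and a role of NRF2 was not tested. The sequences are printed on the gene's own strand, with the match in capitals.
Me1, chr9:86695902-86695930, minus strand: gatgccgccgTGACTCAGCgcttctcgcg
G6pdx, chrX:74428919-74428947, minus strand: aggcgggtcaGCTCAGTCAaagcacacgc
Pgd, chr4:149166061-149166089, minus strand: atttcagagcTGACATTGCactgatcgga
In Me1 the match spanned the RefSeq start, from base -6 to base 3, and lay inside the gene as GENCODE M21 annotates it. In G6pdx it lay 57 to 49 bases before the start and on the opposite strand, so that the capitals show its reverse complement, and it too lay inside the gene in GENCODE M21. In Pgd it lay 4 to 12 bases after a second annotated start within the gene, and the window of the upstream Pgd start held none. The core was found in 3 of the 10 genes, and in 14.0% of all 27025 genes with such a window. The E-box CACGTG, searched in the same windows, was found in 0 of the 10 genes and in 8.09% of all genes. The GC box GGGCGGG was found in 7 of the 10 genes, against 27.9% of all genes. These shares cover all genes with a window, whether or not these cells express them. Shares over the 12675 tested genes alone were not computed, so the comparison is not with like genes. The motif finds are matches of letters and show no binding.

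Me1 and Pgd were the members whose ozonated oil libraries both lay above both plain oil libraries, and the other 8 members overlapped between groups. No member passed the test over all genes with group as the only term, so none can be said to have changed. With a replicate block Me1 passed, as did 1160 of 12675 genes in all, but no label says that the numbers pair the samples. With the edgeR quasi-likelihood test, 0 of 10 members and 0 of 12675 genes (0.00%) had an adjusted p below 0.05. DESeq2 called 0 of 10 members and 271 genes (2.14%). At an unadjusted edgeR p below 0.05 there was 1 member, Me1, against 1245 genes (9.82%). Groups did not overlap, with higher values for ozonated oil, for 2 of the 10 members and for 19.9% of all tested genes. In either direction it was 2 of 10 members against 40.0% of all tested genes. With a log2 change above 0 there were 9 members, against 54.0% of all tested genes, and the median log2 change was 0.19 for the 10 members and 0.04 for all genes. Both values depended on ozonated oil library 2. Without that library 5 members were higher, with a median of 0.029, and the median of all genes was -0.022. Without plain oil library 1, 7 members were higher, with a median of 0.24. Leaving out plain oil library 2 or ozonated oil library 1 gave 9 higher members each, with medians of 0.16 and 0.25. Because RNA was measured in bulk, a different share of cells expressing a gene and a different amount of its RNA per cell cannot be told apart.

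**Figure D1:**
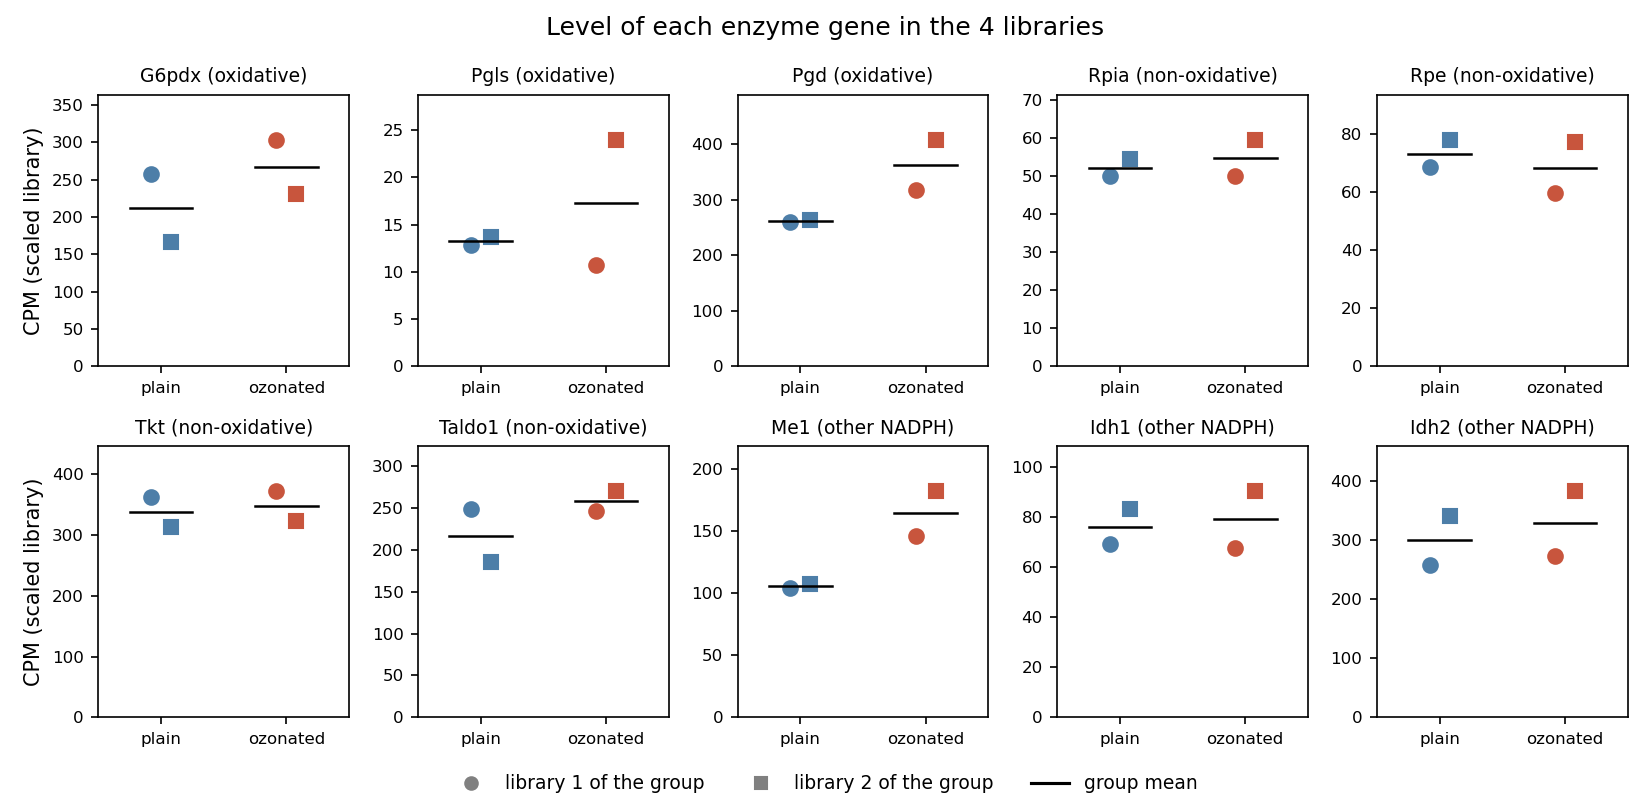
Level of each of the 10 enzyme genes, in CPM on scaled library sizes, in the 2 plain oil libraries (blue) and the 2 ozonated oil libraries (red); circles are library 1 and squares library 2 of a group, and black lines are group means. Both red points lie above both blue points for Pgd and Me1, while the points of the other 8 genes overlap between groups.

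The oxidative branch had higher mean values with ozonated oil for all of its 3 genes. So did the other NADPH sources for 3 of 3 genes and the non-oxidative branch for 3 of 4. A log2 change above 0 was found for 54.0% of all tested genes. G6pdx (Entrez 14381; chromosome X, 74409483 to 74429194, GRCm38) encodes glucose-6-phosphate dehydrogenase, the rate-limiting entry step of the pathway. Its level was 257 and 167 CPM in libraries 1 and 2 with plain oil, and 303 and 231 CPM in libraries 1 and 2 with ozonated oil. Plain oil library 2 was the lowest and ozonated oil library 1 the highest, and plain oil library 1 lay above ozonated oil library 2. The gap within the plain oil group, 6070 against 3970 counts, was far wider than counting error, which for G6pdx had an SD of at most 1.59% of a count. Its log2 change was 0.33 with a standard error of 0.27 (95% interval -0.33 to 0.99, edgeR adjusted p = 0.781), and leaving out libraries 1 and 2 in turn gave 0.68 and 0.057 for plain oil and 0.093 and 0.50 for ozonated oil. Ikbkg, on the opposite strand, overlaps the whole of G6pdx and had 1325 to 1758 counts in a library, and with the strand setting of the counting not given its reads may have entered the G6pdx values.

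Pgls (chromosome 8, 71592176 to 71601092) encodes the lactonase that follows G6pdx. Its levels were 12.8 and 13.7 CPM with plain oil and 10.7 and 23.9 CPM with ozonated oil, so the ozonated oil libraries were the lowest and the highest of the 4. Its log2 change of 0.38 (SE 0.39, edgeR adjusted p = 0.815) rested on ozonated oil library 2 and was -0.32 without it. Pgls had the fewest counts among the members, 244 to 671 in a library, and its annotation overlaps Fam129c on the same strand, which had 119 to 177 counts.

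Pgd (Entrez 110208; chromosome 4, 149149991 to 149166771) encodes 6-phosphogluconate dehydrogenase, the second NADPH-producing step. With plain oil its level was 260.0 and 263 CPM, and with ozonated oil 318 and 407 CPM. The plain oil libraries were nearly equal and both lay below both ozonated oil libraries, with means of 261 ± 1.93 and 362 ± 62.8 CPM (SD, n = 2 per group). Pgd was thus at 1.39-fold the plain oil level (95% interval 0.979 to 1.96), with an unadjusted edgeR p of 0.0613 and an edgeR adjusted p of 0.541. Without ozonated oil library 2 its log2 change went from 0.47 to 0.27.

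In the non-oxidative branch the groups overlapped for every gene, as they did for G6pdx and Pgls in the oxidative branch. Tkt (chromosome 14, 30548359 to 30574720), the transketolase that moves carbon units between sugars, was at 362 and 312 CPM with plain oil and at 371 and 322 CPM with ozonated oil. In each group library 1 was the higher, and the group means of 337 ± 35.0 and 347 ± 35.0 CPM (SD, n = 2 per group) differed by less than either SD. Its log2 change was 0.04, with a 95% interval of -0.44 to 0.53.

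Taldo1 (chromosome 7, 141392199 to 141402968), the transaldolase that works beside Tkt, was at 248 and 185 CPM with plain oil and at 246 and 269.7 CPM with ozonated oil. Plain oil library 2 stood apart as the lowest, and the remaining 3 libraries lay close together. The log2 change was 0.25 (SE 0.21, edgeR adjusted p = 0.789), and it was 0.48 and 0.059 without plain oil libraries 1 and 2. A processed pseudogene of Taldo1, Gm17823, aligned to it at 94.7% identity over 923 bases; its reads were not analysed here.

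Rpia (chromosome 6, 70765720 to 70792232), the ribose phosphate isomerase, was at 50.1 and 54.5 CPM with plain oil and at 50.03 and 59.5 CPM with ozonated oil. The ozonated oil libraries were the lowest and the highest of the 4. Its log2 change was 0.07, with a 95% interval of -0.37 to 0.51. Rpe (chromosome 1, 66700831 to 66719805), the ribulose phosphate epimerase, was the sole member with a lower mean, at 68.5 and 77.8 CPM with plain oil and 59.5 and 77.1 CPM with ozonated oil. Its groups overlapped, and its log2 change was -0.10 with a 95% interval of -0.58 to 0.38. Rpe shares 558 bases with Kansl1l on the opposite strand, which had 390 and 421 counts with plain oil and 685 and 709 with ozonated oil. The part of such reads in the Rpe values was not tested.

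Among NADPH sources outside the pathway, Me1 was the gene whose libraries separated by oil. Its log2 change was the largest of the 10 genes with all 4 libraries, though that of G6pdx or Pgls was larger in 3 of the 4 fits that left a library out. Me1 (Entrez 17436; chromosome 9, 86581371 to 86695953) encodes the cytosolic malic enzyme, which converts malate to pyruvate and supplies NADPH for fatty acid synthesis. With plain oil it measured 104 and 107 CPM, and with ozonated oil 146 and 182 CPM. The plain oil libraries were nearly equal, and the lower ozonated oil library was above both. Me1 was at 1.56-fold (95% interval 1.14 to 2.13), and its log2 change was 0.64 (SE 0.19). Its unadjusted edgeR p of 0.0136 ranked 498th of 12675 genes and its edgeR adjusted p was 0.347. With each library left out in turn the log2 change ran from 0.46 to 0.76 and the edgeR adjusted p was at least 0.0556. A processed pseudogene, Gm7049, is 98.5% identical to Me1 over 1638 bases, and reads that match both may have been counted for either.

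Idh1 and Idh2 encode the cytosolic and the mitochondrial NADP-dependent isocitrate dehydrogenases. Idh1 (chromosome 1, 65158616 to 65186500) was at 69.2 and 83.2 CPM with plain oil and at 67.7 and 90.3 CPM with ozonated oil. Idh2 (chromosome 7, 80094846 to 80115392) was at 258 and 341 CPM with plain oil and at 273 and 382 CPM with ozonated oil. In both genes library 2 was above library 1 in each group, and the groups overlapped. The log2 change was 0.05 for Idh1 (95% interval -0.46 to 0.57) and 0.13 for Idh2 (95% interval -0.49 to 0.75), and the edgeR adjusted p was 0.960 and 0.916.

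The members did not vary as a block across the 4 libraries. Library 2 was above library 1 in both groups for 7 members (Pgls, Pgd, Rpia, Rpe, Me1, Idh1 and Idh2), and library 1 above library 2 in both groups for G6pdx and Tkt. Among all 12675 tested genes, 4587 showed the first order and 4248 the second. G6pdx and Pgd, which act in the same branch, therefore had unlike profiles. The deviation of plain oil library 2 from the gene's mean was -0.49 on the log2 scale for G6pdx and -0.22 for Pgd, and that of ozonated oil library 2 was -0.02 and 0.41.

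**Figure D2:**
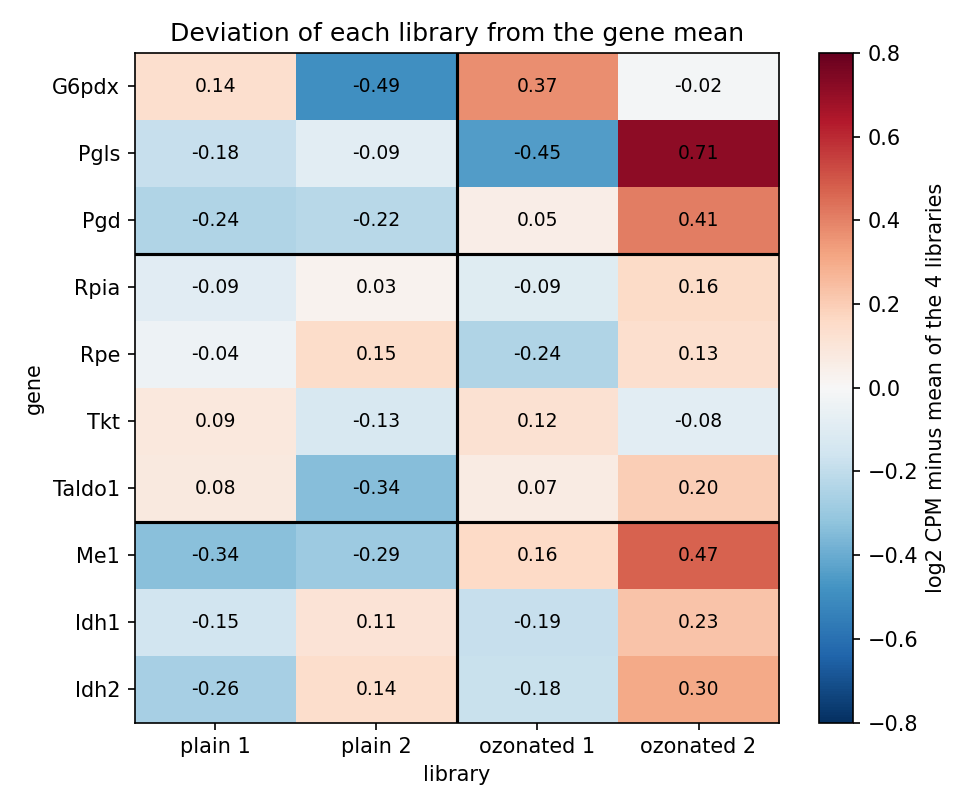
Log2 CPM of each gene in each library minus the gene's mean over the 4 libraries, with black lines between the 3 gene groups and between the oils. Me1 and Pgd are negative in both plain oil libraries and positive in both ozonated oil libraries; Pgls reaches 0.71 in ozonated oil library 2 and -0.45 in ozonated oil library 1.

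Levels were compared between genes as CPM per kb of the longest coding transcript in GENCODE M21, a choice of length that affects the order of genes but not the difference between libraries. With plain oil, Idh2 (mean of 171 CPM per kb) and Taldo1 (159) were highest, followed by Pgd (118), Tkt (105) and G6pdx (79.9). Idh1 (33.1), Me1 (32.0), Rpia (28.6) and Rpe (27.0) formed a lower group, and Pgls was lowest at 12.5 CPM per kb. Neighbouring genes whose plain oil libraries overlapped were Idh2 and Taldo1, Tkt and G6pdx, Idh1 and Me1, and Rpia and Rpe. With ozonated oil the mean of Me1, 49.9 CPM per kb, stood above that of Idh1, 34.3 CPM per kb, in both libraries.

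Ratios between members within a library do not depend on how libraries were scaled, and 7 such ratios of CPM per kb were computed. The ratio of Me1 to Idh1 was 1.05 and 0.899 with plain oil and 1.51 and 1.41 with ozonated oil, without overlap. The summed oxidative branch over the summed non-oxidative branch was 0.652 and 0.667 with plain oil and 0.776 and 0.817 with ozonated oil, again without overlap. Me1 and Pgd, which separated by oil as single genes, are part of these ratios, so the ratios partly restate them. G6pdx and Pgls, the rest of the oxidative branch, overlapped between groups. How often ratios of other genes separate was not computed. The ratio of Rpe to Rpia separated in the other direction, at 0.921 and 0.961 with plain oil and 0.802 and 0.873 with ozonated oil. The remaining 4 ratios overlapped between groups. The ratio of Idh2 to Idh1 was 4.91 and 5.41 with plain oil and 5.32 and 5.58 with ozonated oil. The ratio of Pgd to G6pdx was higher in library 2 of each group than in library 1 of either, at 1.21 and 1.88 with plain oil and 1.26 and 2.104 with ozonated oil. These ratios are descriptions, since the smallest two-sided p that exact permutation allows for 2 libraries against 2 is 0.3333.

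**Figure D3:**
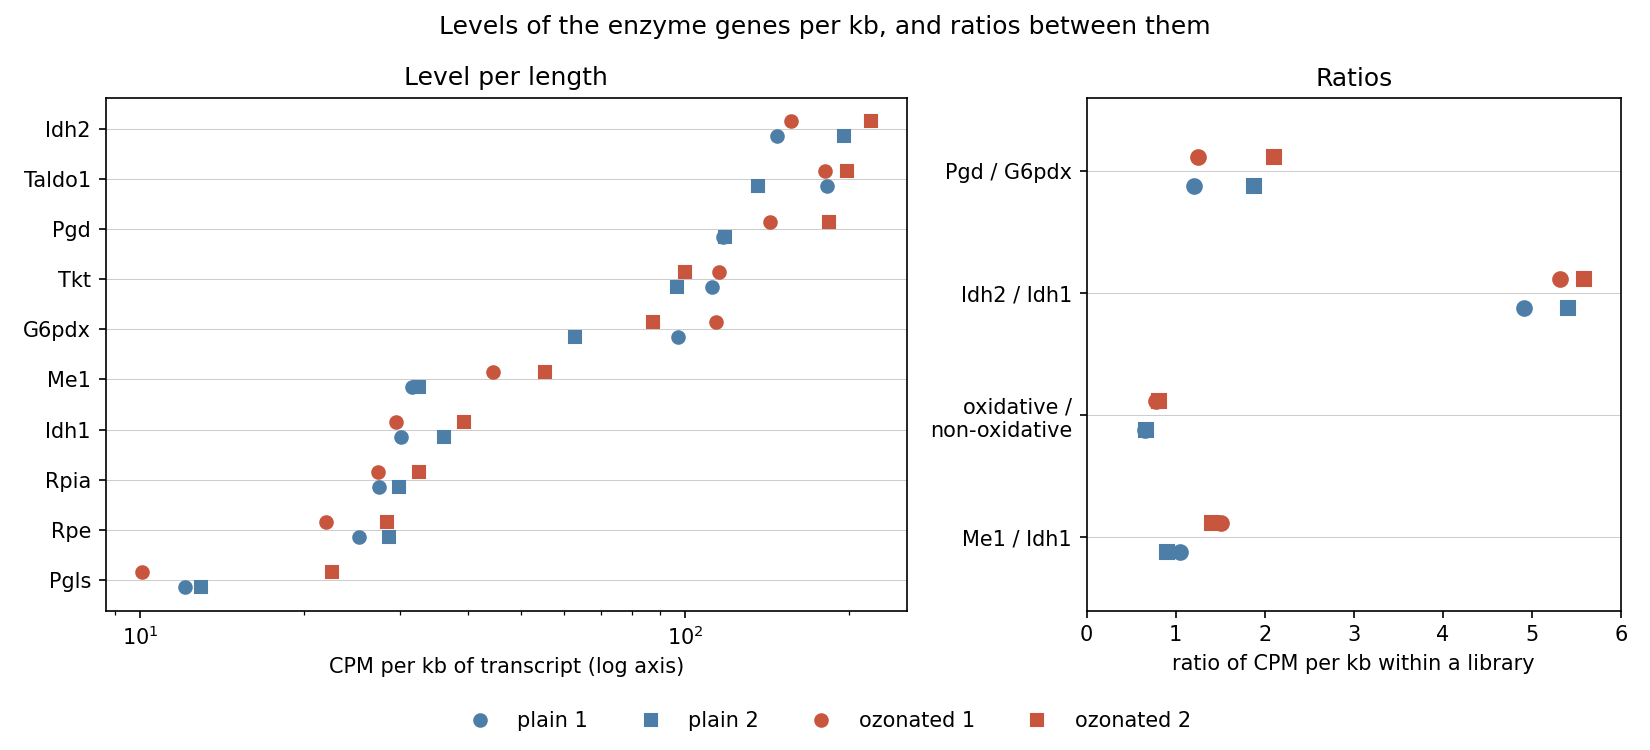
Left, level of each gene in CPM per kb of transcript on a log axis; right, 4 ratios of CPM per kb within a library; blue marks plain oil, red ozonated oil, circles library 1 and squares library 2 of a group. The red and blue points separate for Me1 / Idh1 and for the oxidative over non-oxidative sum, and overlap for Idh2 / Idh1 and Pgd / G6pdx.

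The genes whose profile over the 4 libraries lay nearest to that of G6pdx, among 7569 genes with a mean of at least 20 CPM, were Tcirg1, H2-D1 and Psap, at Euclidean distances of 0.064, 0.104 and 0.104 in centred log2 CPM. Those nearest to Me1 were Paip2, Atg13 and Abhd5, at 0.054, 0.058 and 0.075. With only 4 libraries such likeness is common, and 34 genes lay within 0.2 of G6pdx and 92 within 0.2 of Me1.

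Other genes of the pentose phosphate pathway and its outlets had 4 higher and 4 lower values among 8 tested of 11 listed, and 0 passed over all genes. Shpk, which phosphorylates sedoheptulose, had the smallest p, at 3.30 and 5.00 CPM with plain oil and 7.24 and 6.34 CPM with ozonated oil (log2 change 0.71, SE 0.34). H6pd, the G6pdx relative of the endoplasmic reticulum, was at 45.0 and 30.7 CPM with plain oil and 34.3 and 16.5 CPM with ozonated oil, and its groups overlapped. Prps1, which draws ribose phosphate into nucleotide synthesis, had a log2 change of -0.25 without overlap, and Tigar, which lowers flux through glycolysis, one of -0.22 with overlap. G6pd2, a near copy of G6pdx with 93.2% identity over 2332 bases, had 3 to 7 counts in a library, Tktl1 had at most 1 and Tktl2 had 0 in every library, and these 3 genes were not tested.

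Genes that make, phosphorylate or transfer the cofactor were likewise divided, with 5 higher and 5 lower values among 10 tested, 0 of which passed over all genes. Mthfd1, the cytosolic folate enzyme with an NADPH-producing step, was at 206 and 173 CPM with plain oil and at 142 and 98.6 CPM with ozonated oil. Both ozonated oil libraries were lower, with a log2 change of -0.65 (SE 0.23, edgeR adjusted p = 0.451). Mthfd2l, a mitochondrial relative at 10 to 39 counts in a library, had a log2 change of -1.54 (SE 0.58), also without overlap. Nadk2, the mitochondrial NAD kinase, was at 29.8 and 35.4 CPM with plain oil and 39.7 and 43.1 CPM with ozonated oil, whereas Nadk, the cytosolic kinase that makes NADP, was at 116 and 122 CPM with plain oil and 106 and 105 CPM with ozonated oil. The NAD-linked isocitrate dehydrogenase subunits Idh3a, Idh3b and Idh3g had log2 changes of -0.21, 0.13 and 0.13, and 0 of 3 passed.

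**Figure D4:**
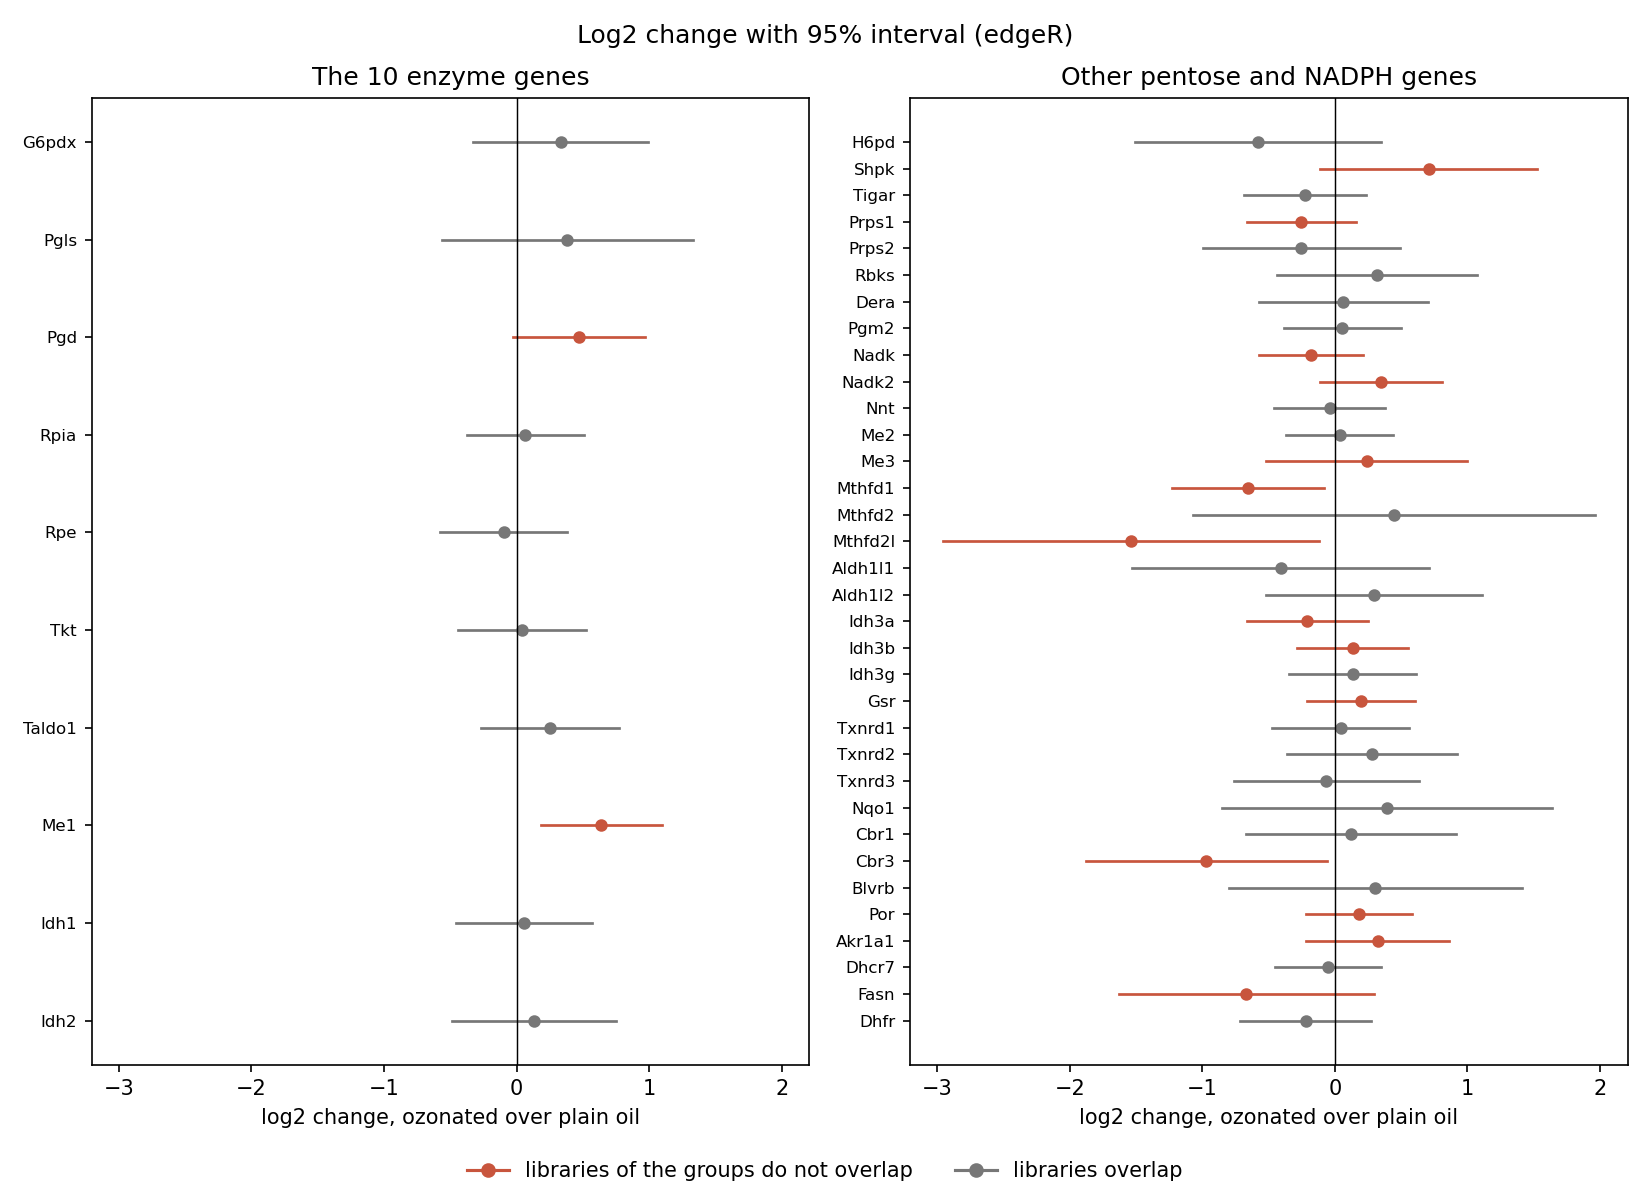
Log2 change of ozonated over plain oil with its 95% interval from edgeR, for the 10 enzyme genes (left) and for 34 of the other 36 tested genes of pentose and NADPH metabolism (right; the other 2 are not reported here); red marks genes whose libraries do not overlap between the groups. Among the 10 genes the interval of Me1 alone lies above 0, before adjustment for the number of genes tested.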

How the data were processed

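The authors deposited unnormalized counts of reads for each gene, in 1 column per library. HISAT2 2.1.0, StringTie 1.3.4d, bedtools 2.27.1 and edgeR are named, with the build mm10, by the submitters' processing notes. For the counting program, its annotation, its strand setting and its handling of multiply matching reads, the sources used here give no name or value.

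Genes were filtered with filterByExpr of edgeR 4.0.16 (R 4.3.3), TMM factors scaled the libraries, and groups were compared with the two-sided quasi-likelihood F-test with group as the only term and Benjamini-Hochberg adjustment over all 12675 genes, at a threshold of 0.05. Standard errors come from the F statistic. The test was tried on simulated counts with known changes, and how many of these it recovered is not given here. Positions and transcript lengths come from GENCODE M21 (GRCm38, the assembly of mm10), matched for all 10 genes, and near copies were sought with BLAST 2.17.0 at 90% identity over at least 300 bases. Promoter sequences come from RefSeq.

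The members and gene lists were chosen with earlier results of these data known. Genes named are the 10 members, up to 4 genes per further list by smallest p, untested genes of the lists, and the 3 nearest profiles of G6pdx and Me1. Some genes that this rule names are not reported here. Alternatives were median-of-ratios scaling, other filters, a replicate block, each library left out and DESeq2 1.42.0.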

Additional observations from a re-analysis of the deposited data

How the results depend on the processing

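The count of genes with an adjusted p below 0.05 was 0 with edgeR, also with median-of-ratios scaling and with a filter of 1 CPM in 2 libraries. It was 4 with no low-count filter and 271 with the DESeq2 Wald test, and from 1 to 389 with a library left out, the most without ozonated oil library 1. The cause was not tested. No member was among the genes called in any of these settings. Same-numbered libraries deviated together (correlation 0.446 over 12675 genes), but with 2 pairs and no label on what a number marks, the numbers are not taken to pair the samples. With the replicate block 1160 genes passed, among the members Me1 alone (log2 change 0.63, edgeR adjusted p = 0.0216). Of 90 member values under the 9 alternatives, 79 kept direction and side of the threshold, and 10 changed sign, all with a library left out. In those settings the log2 change ran from -0.32 to 0.82 for Pgls, -0.074 to 0.15 for Rpia, -0.30 to 0.044 for Rpe, -0.10 to 0.15 for Tkt, -0.18 to 0.21 for Idh1 and -0.14 to 0.35 for Idh2. G6pdx, Pgd, Taldo1 and Me1 were higher with ozonated oil in all 9 alternatives; G6pdx ran from 0.057 to 0.68. The count of members without overlap was 2 under the scalings tried, where 39.8% to 40.4% of all genes did not overlap, and, in an alternative added after seeing the data, 3 to 8 with a library left out, where 57.5% to 82.4% of all genes did not overlap. Counting error limits Pgls most, with an SD of up to 6.40% of a count.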

Other observations

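Enzymes that spend NADPH were not called either, with 9 higher and 6 lower values among 15 tested of 16 listed and 0 past an adjusted p of 0.05 in edgeR (1 at an unadjusted p below 0.05). That gene was Cbr3, a carbonyl reductase, at 38.8 and 21.5 CPM with plain oil and 19.2 and 11.6 CPM with ozonated oil (log2 change -0.97, SE 0.37). Fasn, the fatty acid synthase, was at 514 and 400.1 CPM with plain oil and 399 and 176 CPM with ozonated oil. Both of its ozonated oil libraries were lower, but ozonated oil library 1 and plain oil library 2 were nearly equal. Its log2 change was -0.67 (SE 0.39, edgeR adjusted p = 0.674), and a link to Me1 was not tested. Gsr, the glutathione reductase, was at 104 and 97.7 CPM with plain oil and 122 and 109.5 CPM with ozonated oil; its naming followed sight of its values. Library 1 was above library 2 in both groups for 11 of the 15 genes, the opposite order to that of 7 of the 10 pentose phosphate and NADPH enzymes described above. Ptgr1 had 0 to 6 counts in a library and was not tested.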
